A study of Mus musculus with 8 samples.

Results

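Genes of glycolysis and of the response to low oxygen were followed in brown adipose tissue of mice labelled as a brown adipocyte knockout of Ogt and of wild-type mice. The set held 36 genes, chosen by name: HIF subunits, oxygen-sensing hydroxylases, glucose and lactate transporters, glycolytic enzymes and known HIF targets. All 36 were found among the 54532 genes of the deposited table, and 32 passed the filter on low values (a mean of at least 0.5 FPKM over 8 libraries). FPKM counts fragments per kilobase of gene, scaled for depth. Slc16a3, Aldoc, Ankrd37 and Car9 fell below the filter and were not tested.

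The 8 libraries came from dissected brown fat of mice kept at 23 °C on standard chow. They form 2 groups of 4, numbered 1 to 4 (values are given in that order), wild type (WT) and a knockout of Ogt restricted to brown adipocytes (OGTBKO), and the labels give WT the treatment control and OGTBKO the treatment OGTBKO. All mice were induced after 8 weeks, with an agent spelled gomaxifen in the labels, and tissue was taken 2 months later. The driver of the knockout, the deleted exons, the strain and the sex are not stated in the sources used here. The labels call the cells adipocytes, but the whole depot was extracted, and a fall in tissue RNA cannot distinguish fewer cells of a type from less RNA per cell.

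Glycolysis turns glucose into pyruvate in the cytosol, and lactate dehydrogenase converts pyruvate to lactate and back. The HIF factors pair an oxygen-labile alpha subunit (HIF-1 alpha or HIF-2 alpha) with the stable partner ARNT. In the presence of oxygen, EGLN prolyl hydroxylases mark the alpha subunit, and VHL directs it to degradation. When oxygen is short the HIF factors, as a family, bind DNA and raise many genes, glycolytic ones among them. Brown fat takes up much glucose when active, and O-GlcNAc, the sugar mark that OGT places on proteins, is made from a side branch of glycolysis.

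Each library held 13393962 to 15897920 reads assigned to genes. Ogt measured 22.5 to 33.1 FPKM in WT and 10.7 to 14.5 FPKM in OGTBKO libraries, with no overlap, so it was lower in the whole depot (log2 -1.03, adjusted p = 0.00511) but not absent. With the library number as a replicate block, and each library's trend with GC content and transcript length removed as well, its adjusted p was 0.0503. Defining genes of brown adipocytes were present in every library, with a summed level of 4034 to 5994 FPKM (WT) and 4456 to 5184 FPKM (OGTBKO) for the 11 markers listed. Single markers moved in both directions without overlap: Ucp1, the uncoupling protein that defines these cells, fell from 2051 ± 485 to 1006 ± 79.3 FPKM (log2 -0.999, adjusted p = 0.0113). The lipid droplet protein Plin5 fell too (log2 -0.71, adjusted p = 0.0100), the respiratory chain subunit Cox7a1 rose (log2 1.14, adjusted p = 0.00317), and the other 8 were not called. The part of these changes in the results below was not tested. Libraries numbered 1 stood apart by skeletal muscle transcripts: the 15 muscle markers summed to 655 FPKM in WT 1 and 1851 FPKM in OGTBKO 1. WT 4 followed with 66.7 FPKM, and the remaining libraries lay at 20.4 to 31.5 FPKM. WT 3 stood apart by mitochondrial reads, 39.4% of its total against 25.2% to 32.2% elsewhere. Summed markers of macrophages (10 genes, 181 to 358 and 245 to 568 FPKM), of endothelium (10 genes, 1 higher, 126 to 166 and 156 to 167 FPKM) and of red blood cells (7 genes, 397 to 1102 and 410 to 841 FPKM) overlapped between WT and OGTBKO. White fat markers did not overlap, at 84.0 to 167 FPKM in WT and 198 to 244 FPKM in OGTBKO libraries (8 of 9 found, 2 of 7 tested higher). The 7 genes of Schwann cells and nerve summed to 44.8 to 63.7 and 37.7 to 49.6 FPKM, with Dbh at 0 throughout.

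Of the 32 genes tested, 4 were called at an adjusted p under 0.05 (limma, Benjamini-Hochberg over all genes tested). The collagen hydroxylase P4ha1, the glycolytic regulator Pfkfb3 and the oxygen sensor Egln1 fell, and hexokinase 1 (Hk1) rose. These 4 are 12.5% of the genes tested, where 15.6% of all genes tested were called, a share near that background. By direction, 1 was higher (background 8.11%) and 3 were lower (background 7.46%). WT and OGTBKO values did not overlap for 4 of the 32 (P4ha1, Pfkfb3, Hk1 and Pfkfb4), against 22.5% of all genes tested. The median log2 change of the 32 was -0.05, and that of all genes tested -0.002. Without both libraries numbered 1, the ones richest in muscle transcripts, the same 4 genes were called in the same directions, where 14.6% of all genes were.

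**Figure D1:**
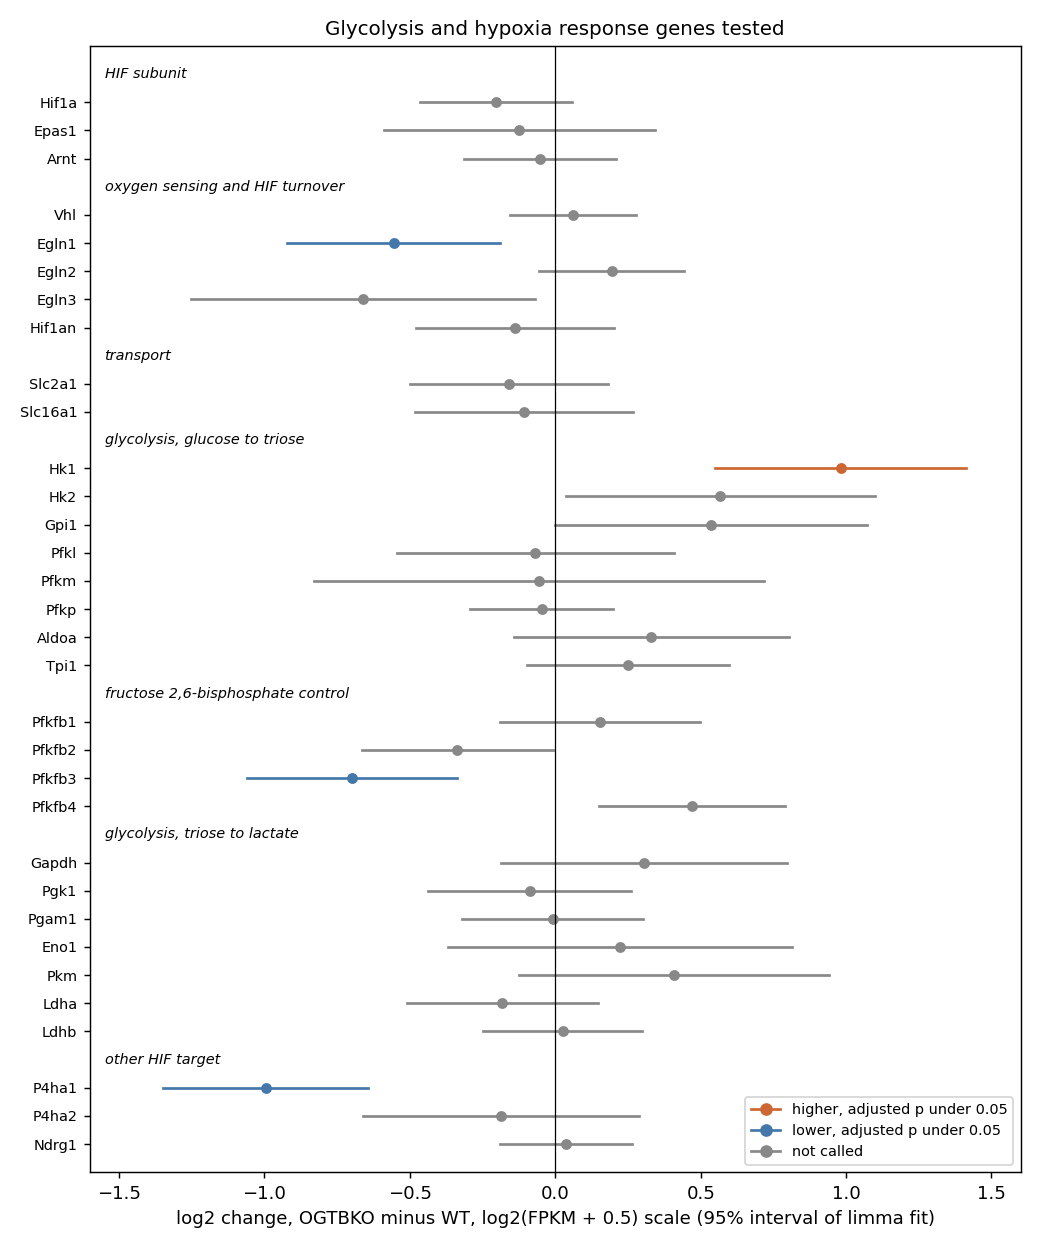
Log2 change (OGTBKO minus WT, log2(FPKM + 0.5) scale) of the 32 genes tested, by role; points are estimates and bars 95% intervals of the limma fit. P4ha1, Pfkfb3 and Egln1 lie below 0 and Hk1 above 0 with adjusted p under 0.05, and the grey genes were not called.

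The HIF subunits themselves were not called. Epas1, which encodes HIF-2 alpha and is abundant in endothelium, was the most abundant of them, at 62.9, 105, 129 and 105 FPKM in WT, against 104, 78.4, 89.7 and 86.9 FPKM in OGTBKO. WT 1 was the lowest of all 8 for Epas1 and WT 3 the highest, so the OGTBKO values lay inside the WT range (log2 -0.12, 95% interval -0.59 to 0.34). The value rested on single libraries, at log2 -0.33 without WT 1, 0.01 without WT 3 and -0.41 without both libraries numbered 1 (adjusted p = 0.0746). Hif1a, encoding HIF-1 alpha, ranged over 14.3 to 16.9 FPKM (WT) and 11.2 to 15.5 FPKM (OGTBKO), a log2 difference of -0.20 (95% interval -0.46 to 0.06, adjusted p = 0.253), and -0.003 in the fit on values freed of that GC and length trend. Epas1 made up 86.0% ± 3.88 of the summed FPKM of both alpha subunits in WT and 86.8% ± 2.82 in OGTBKO tissue (SD, n = 4 each). Arnt, the shared partner, measured 5.73 ± 0.832 and 5.48 ± 0.437 FPKM (log2 -0.05, 95% interval -0.31 to 0.21).

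Among the genes of oxygen sensing, Egln1 (PHD2), the main prolyl hydroxylase of HIF in most tissues, fell. It measured 52.3, 86.6, 76.1 and 82.7 FPKM in WT, against 56.2, 46.1, 48.9 and 47.5 FPKM in OGTBKO. All OGTBKO libraries lay below WT 2, WT 3 and WT 4, while WT 1 sat among them, so the groups overlapped. The mean went from 74.4 ± 15.4 to 49.7 ± 4.51 FPKM (log2 -0.56 ± 0.16 SE, adjusted p = 0.0485). This call was the weakest of the 4: it ended when any one library other than WT 1 was left out (adjusted p between 0.0560 and 0.126), and when the library total served as FPKM denominator (adjusted p = 0.156). Without both libraries numbered 1 it stood at log2 -0.78 with adjusted p = 0.0101.

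Egln3 (PHD3), whose gene is itself a HIF target, was lower on average but was not called. Its WT values of 5.39, 5.46, 3.12 and 8.20 FPKM stood against 3.07, 2.57, 2.65 and 4.64 FPKM in OGTBKO libraries (log2 -0.66, 95% interval -1.25 to -0.07, adjusted p = 0.116). WT 3 was the lowest WT library and OGTBKO 4 the highest of its group, which made the groups overlap. The adjusted p of Egln3 was 0.0318 without WT 3 and 0.0413 with the replicate block and the GC and length trend removed together. Egln2 (PHD1), a hydroxylase found mainly in the nucleus, averaged 10.7 ± 1.18 FPKM in WT, against 12.3 ± 1.12 FPKM in OGTBKO tissue (log2 0.19, adjusted p = 0.257).

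The make-up of the EGLN family differed between the groups in each library. Egln1 took 78.4%, 83.5%, 83.9% and 81.5% of the family's summed FPKM in WT, compared with 77.0%, 77.2%, 76.7% and 74.0% in OGTBKO libraries. The share of Egln2 was 10.4% to 13.6% in WT and 18.5% to 19.2% in OGTBKO libraries. Neither share overlapped, and that of Egln2 was almost the same in all 4 OGTBKO libraries (18.8% ± 0.271, SD). Both were noticed in these data and are given without a test. Egln1 held most of the sum, so its fall by itself raises the share of Egln2, and the levels of Egln2 overlapped between the groups. WT 1, whose Egln1 level lay among those of OGTBKO, had an Egln2 share of 13.6%. The part of the higher mean of Egln2 and the lower mean of Egln3 in these shares was not tested. Of the other brakes on HIF, Vhl measured 5.10 ± 0.462 and 5.33 ± 0.334 FPKM (log2 0.06, 95% interval -0.15 to 0.28), and Hif1an, the asparagine hydroxylase FIH, 8.32 ± 1.09 and 7.58 ± 1.53 FPKM (log2 -0.14, 95% interval -0.48 to 0.20).

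**Figure D2:**
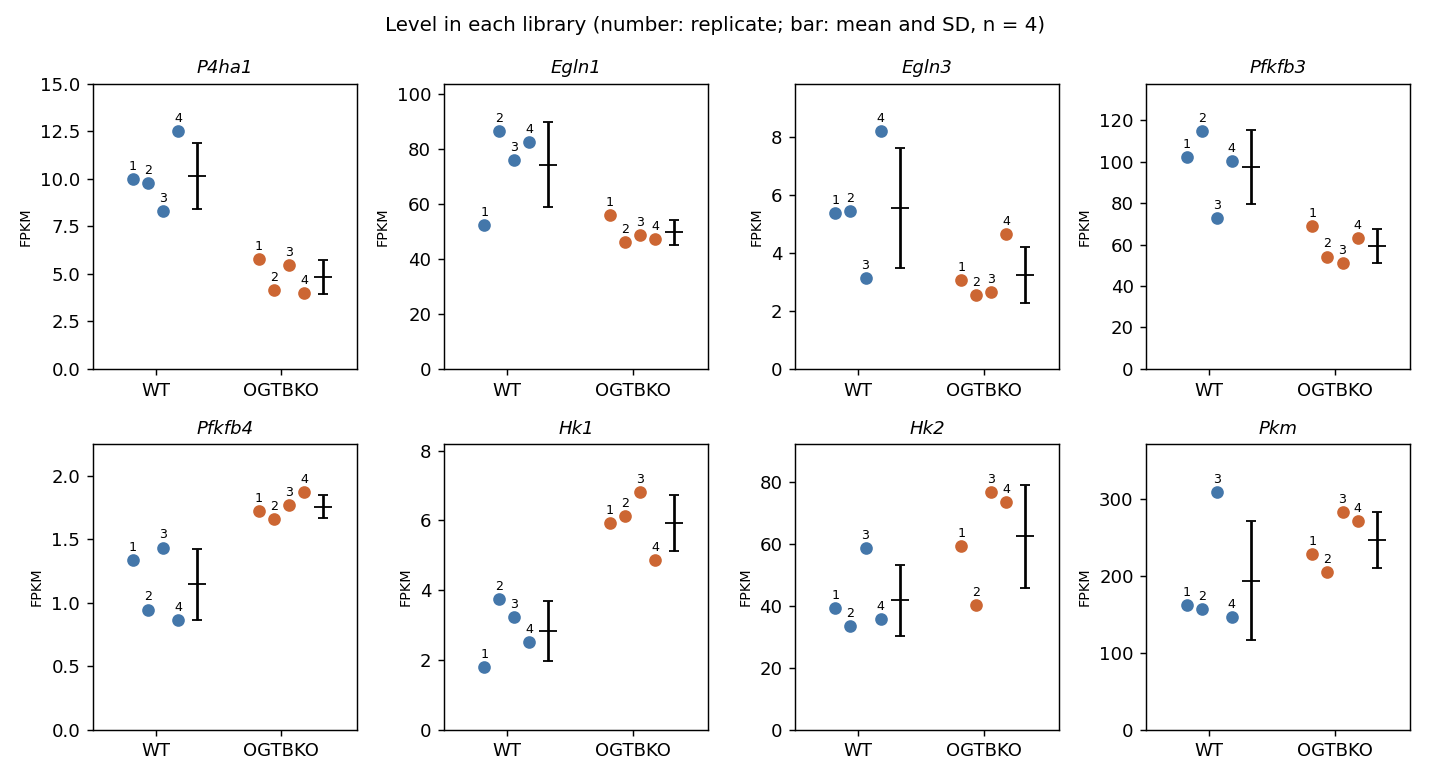
FPKM of 8 genes in each library (points, with the replicate number), with the group mean and SD (n = 4) beside them. P4ha1, Pfkfb3, Pfkfb4 and Hk1 show no overlap between the groups; in Pkm, WT 3 at 309 FPKM stands above all OGTBKO libraries.

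Of the transporters, the lactate and pyruvate carrier Slc16a1 (MCT1) was by far the most abundant. It measured 151, 134, 153 and 111 FPKM in WT and 99.8, 125, 126 and 163 FPKM in OGTBKO libraries, with the highest and the lowest value of all 8 both in the OGTBKO group (log2 -0.11, 95% interval -0.48 to 0.27). The basal glucose transporter Slc2a1 (GLUT1) ranged over 1.67 to 2.74 FPKM (WT) and 1.52 to 2.17 FPKM (OGTBKO; log2 -0.16, adjusted p = 0.506). Slc2a4 (GLUT4), the insulin-regulated glucose transporter and not one of the 36, was read at 99.6 ± 9.24 and 102 ± 19.6 FPKM (log2 0.02, 95% interval -0.33 to 0.37). Slc16a3 (MCT4), the lactate exporter of glycolytic cells, lay between 0.124 and 0.855 FPKM in all 8 libraries, too low to be tested.

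Hexokinase 1, the widely expressed hexokinase that binds mitochondria, rose. Hk1 measured 1.79, 3.76, 3.24 and 2.51 FPKM in WT, against 5.93, 6.12, 6.82 and 4.86 FPKM in OGTBKO. Every OGTBKO library was above every WT library, and the mean went from 2.83 ± 0.859 to 5.93 ± 0.812 FPKM (log2 0.98 ± 0.19, adjusted p = 0.0137). The call held in all alternatives tried, with log2 changes of 0.81 to 1.11. Summed macrophage and white fat markers reached higher values in OGTBKO libraries (given above). The macrophage sum rested mostly on Lyz2, at 90.7 to 228 FPKM in WT and 148 to 421 FPKM in OGTBKO libraries. Of the 10 macrophage markers 0 were called, and 6 had a positive and 4 a negative log2 change. The part of either cell type in the Hk1 result was not tested.

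Hexokinase 2, the insulin-responsive form of muscle and fat, remained the main hexokinase. Hk2 measured 39.3, 33.4, 58.6 and 35.7 FPKM in WT and 59.2, 40.4, 76.7 and 73.6 FPKM in OGTBKO libraries (log2 0.57, 95% interval 0.04 to 1.10, adjusted p = 0.130). WT 1, WT 2 and WT 4 lay below all OGTBKO libraries, and WT 3 lay among them. Hk1 supplied 6.57% ± 2.53 of the summed hexokinase FPKM in WT and 9.16% ± 2.93 in OGTBKO tissue, with overlap. The difference of log2 levels, Hk1 minus Hk2, was -3.67 ± 0.50 in WT and -3.26 ± 0.48 in OGTBKO libraries (exact two-sided permutation p = 0.314, adjusted p = 0.838 over 8 such ratios), so an unequal change of the 2 genes was not shown.

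Other enzymes of the upper pathway were not called. Gpi1, which isomerises glucose 6-phosphate, measured 62.2, 63.4, 108 and 50.9 FPKM in WT and 80.1, 86.6, 129 and 108 FPKM in OGTBKO libraries (log2 0.54, adjusted p = 0.153). As with Hk2, WT 3 was the sole WT library within the OGTBKO range. Aldoa, the aldolase of muscle and most tissues and the most abundant gene of the set, measured 588 ± 154 and 734 ± 142 FPKM (log2 0.33, 95% interval -0.14 to 0.80). A second gene model named Aldoa, on chromosome 7 from 126800790 to 126809108 (mm10) and directly upstream, was read at 0.153 to 2.85 FPKM and is left aside. Aldoc, the aldolase of brain, stayed under the filter with 9 reads in all in WT and 47 in OGTBKO libraries, with its FPKM of 0.0187 to 0.107 and 0.112 to 0.418 not overlapping. Tpi1, the triose phosphate isomerase, measured 99.7 ± 14.1 and 119 ± 20.5 FPKM (log2 0.25, adjusted p = 0.291).

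Phosphofructokinase 1, the committed step, is built from 3 kinds of subunit. Pfkl, the liver type, took 68.8% ± 5.19 of their summed FPKM in WT and 67.9% ± 7.51 in OGTBKO tissue, and measured 42.1 to 72.0 and 43.3 to 70.4 FPKM. Pfkp, the platelet type, measured 8.28 to 9.53 FPKM in WT and 7.59 to 10.3 FPKM in OGTBKO libraries (log2 -0.05, 95% interval -0.29 to 0.20). Pfkm, the muscle type, read 16.6, 16.3, 22.4 and 19.2 FPKM in WT and 40.6, 14.0, 11.2 and 15.4 FPKM in OGTBKO libraries (log2 -0.06, adjusted p = 0.932; 0.06 with the library total as denominator). OGTBKO 1, at 40.6 FPKM, held the highest Pfkm value and also the most muscle marker transcript. The muscle enolase Eno3 (67.7 FPKM in OGTBKO 1, 25.2 in WT 1, 1.41 to 3.48 elsewhere) and the muscle mutase Pgam2 (33.1, 11.9 and 1.08 to 2.05 FPKM) marked the same 2 libraries. Without both libraries numbered 1 the Pfkm groups did not overlap, and the log2 change was -0.50 (adjusted p = 0.0815). WT 4, with 66.7 FPKM of muscle markers, stayed in that fit.

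**Figure D3:**
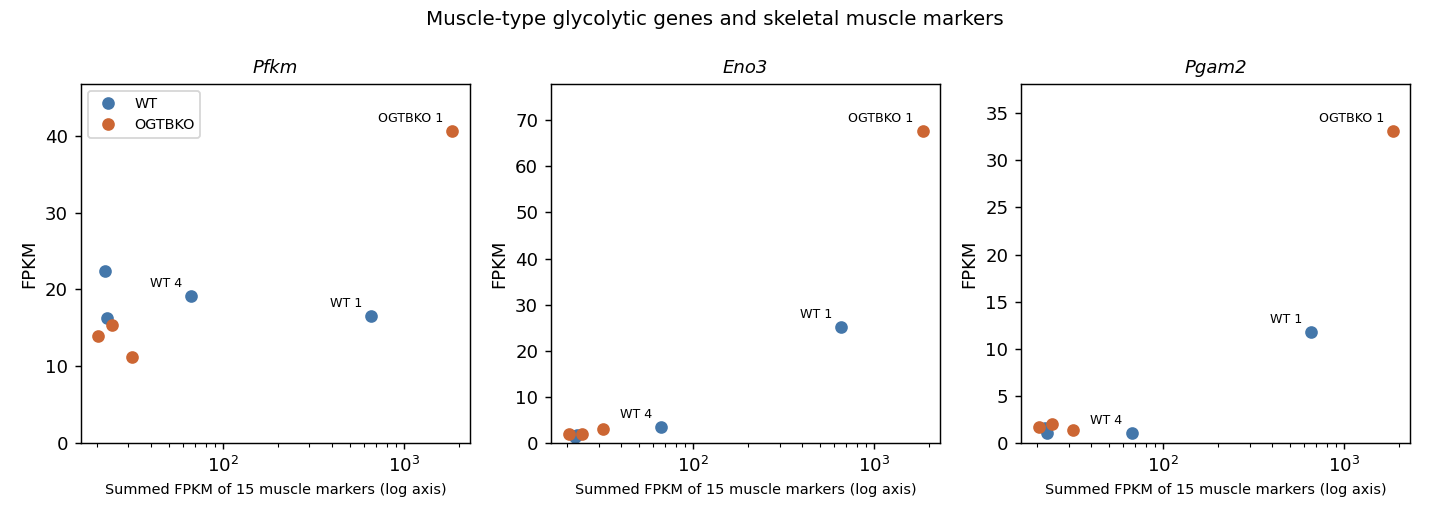
FPKM of Pfkm, Eno3 and Pgam2 against the summed FPKM of 15 skeletal muscle markers (log axis), 1 point per library, coloured by group. OGTBKO 1 (1851 FPKM of markers) is highest in all 3 panels, and WT 1 (655 FPKM) is second for Eno3 and Pgam2.

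Fructose 2,6-bisphosphate, the strongest activator of phosphofructokinase 1, is made and removed by the bifunctional PFKFB enzymes. Pfkfb3, the form with the highest kinase activity, fell. It measured 102, 115, 72.6 and 100 FPKM in WT, against 68.7, 54.2, 51.2 and 63.2 FPKM in OGTBKO. All OGTBKO libraries were below all WT libraries, WT 3 being the nearest of the WT group, and the mean went from 97.3 ± 17.7 to 59.3 ± 8.08 FPKM (log2 -0.70 ± 0.16, adjusted p = 0.0228). Leaving out WT 2, WT 4, OGTBKO 2 or OGTBKO 3 ended the call (adjusted p = 0.0672, 0.0552, 0.0582 and 0.0713), as did the library total as denominator (log2 -0.58, adjusted p = 0.116).

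Pfkfb4, a HIF-responsive form, went the other way in level but just missed the threshold. Its WT values of 1.33, 0.946, 1.43 and 0.866 FPKM all lay below the OGTBKO values of 1.72, 1.66, 1.77 and 1.87 FPKM (log2 0.47, 95% interval 0.15 to 0.79, adjusted p = 0.0526). It was called without WT 1 (adjusted p = 0.0481), without WT 3 (0.0318) and with the library total as denominator (0.0341). Pfkfb1, the form of liver and muscle, measured 8.73 ± 1.46 and 9.75 ± 1.56 FPKM (log2 0.15, adjusted p = 0.524), and Pfkfb2, the heart form, 1.52 ± 0.357 and 1.08 ± 0.0795 FPKM (log2 -0.34, adjusted p = 0.144).

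The make-up of the PFKFB family also differed. Pfkfb3 took 88.6%, 90.5%, 88.6% and 90.1% of the summed PFKFB FPKM in the WT libraries and 84.1%, 82.2%, 82.3% and 81.2% in the OGTBKO libraries. The share of Pfkfb1 was 7.57% to 8.47% in WT and 12.5% to 15.05% in OGTBKO libraries, and that of Pfkfb4 was 0.746% to 1.75% and 2.11% to 2.84%. None of these 3 shares overlapped between the groups, whereas that of Pfkfb2 did. These shares too were noticed in these data and carry no test. Pfkfb3 held most of the sum, so its fall by itself raises the other shares, which are not independent of it. How much of each share rests on that fall was not tested. The levels of Pfkfb4 were higher in OGTBKO libraries without overlap, but Pfkfb4 was not called. The levels of Pfkfb1 overlapped between the groups. Shares within the hexokinases, the phosphofructokinase 1 subunits, the lactate dehydrogenase subunits and the HIF alpha subunits all overlapped.

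**Figure D4:**
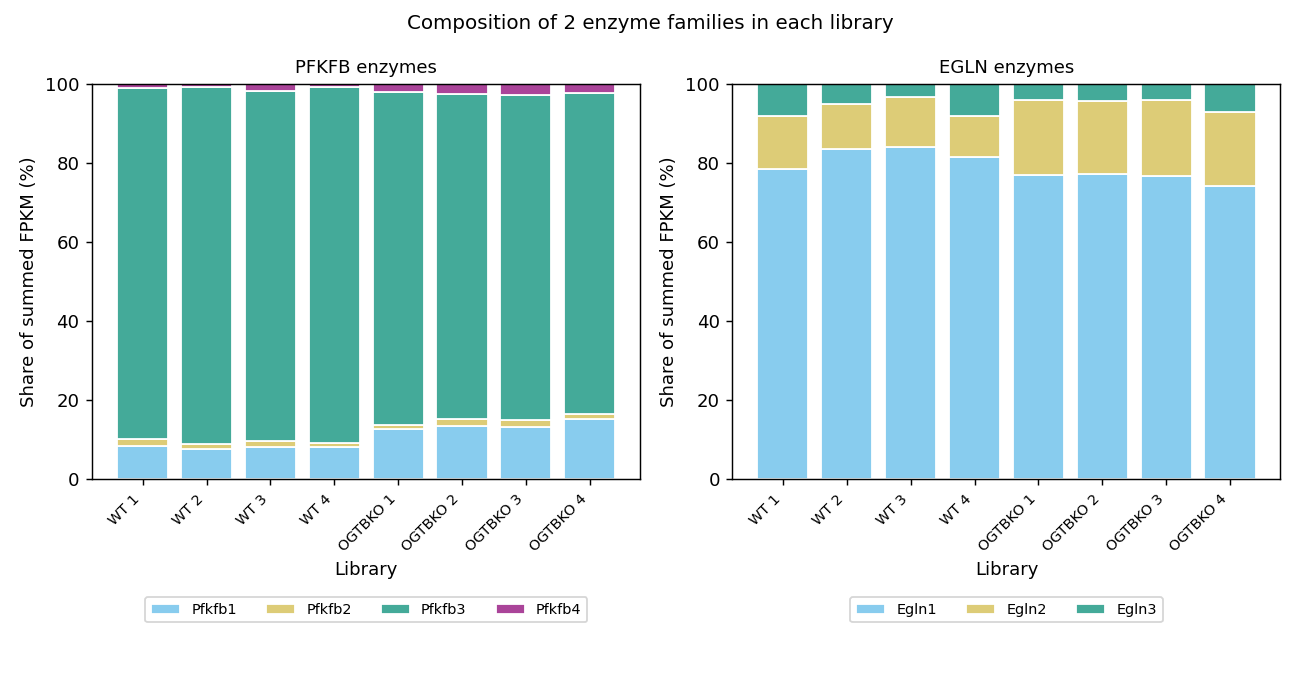
Share (%) of each gene in the summed FPKM of the PFKFB family (left) and the EGLN family (right), 1 bar per library. The Pfkfb3 share is 88.6% or more in WT and 84.1% or less in OGTBKO libraries, and the Egln2 share is at most 13.6% in WT and at least 18.5% in OGTBKO libraries.

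In the lower pathway limma called 0 of 7 genes, and 0 had an unadjusted p under 0.05. The 7 include Gapdh, whose values are not read as its expression (below). With 15.6% of all genes tested called, a count of 0 among 7 says little about these genes. Pkm, the pyruvate kinase of most tissues, measured 162, 157, 309 and 147 FPKM in WT and 228, 205, 283 and 272 FPKM in OGTBKO libraries (log2 0.41, 95% interval -0.12 to 0.94, adjusted p = 0.264). WT 3 was above all OGTBKO libraries and the other WT libraries below them, and without WT 3 Pkm was called (log2 0.66, adjusted p = 0.0194). Eno1, the main enolase, measured 377, 367, 604 and 251 FPKM in WT and 345, 399, 557 and 511 FPKM in OGTBKO libraries, again with WT 3 the highest of all (log2 0.22, adjusted p = 0.598). Its near-identical copy Eno1b was read at 25.9 to 60.5 and 46.7 to 67.7 FPKM, so how reads were divided between them is uncertain.

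The kinase Pgk1 measured 218 ± 45.2 and 202 ± 18.5 FPKM (log2 -0.09, 95% interval -0.44 to 0.26), and the mutase Pgam1, which has processed copies, 220 ± 36.5 and 216 ± 10.3 FPKM (log2 -0.01, 95% interval -0.32 to 0.30). Gene models described as Pgam1 pseudogenes had a mean summed level of 6.20 FPKM in WT and 10.2 FPKM in OGTBKO libraries. Of these, Pgam1-ps2 was called higher (log2 0.70, adjusted p = 0.0101), at 4.94 to 6.94 FPKM in WT and 9.02 to 11.7 FPKM in OGTBKO libraries. How reads were divided between these models and Pgam1 is uncertain. Gapdh, usually among the most abundant transcripts of a cell, was listed at 0.800 to 2.56 FPKM. The table holds 5 gene models described as Gapdh pseudogenes, with a mean summed level of 0.0180 FPKM in WT and 0.0139 FPKM in OGTBKO libraries. How reads that match several copies were counted is not given in the sources used here. The values of Gapdh are therefore not read as its expression, though it stays in the counts of genes tested.

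Lactate dehydrogenase is a tetramer of A and B subunits, A favouring lactate production. Ldha measured 386, 445, 510 and 384 FPKM in WT and 381, 309, 412 and 418 FPKM in OGTBKO libraries (log2 -0.18, 95% interval -0.51 to 0.15), and Ldhb 254, 326, 319 and 312 FPKM and 298, 297, 291 and 343 FPKM (log2 0.03, 95% interval -0.25 to 0.30). The A subunit's share of both was 58.7% ± 2.83 in WT and 55.1% ± 3.15 in OGTBKO tissue and overlapped. Pseudogene models whose description begins as that of Ldha numbered 5, with a mean summed level of 6.12 FPKM in WT and 3.24 FPKM in OGTBKO libraries. How reads were divided between these and Ldha is uncertain. The log2 difference of Ldha and Ldhb changed by -0.21 (exact two-sided permutation p = 0.171, adjusted p = 0.686 over the 8 ratios).

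Single libraries tended to hold the extremes of the glycolytic enzymes. Of the 14 tested other than Gapdh, WT 3 was the highest WT library for 10, where it was the highest for 32.1% of all genes tested. In the other group OGTBKO 3 was the highest for 9 of 14 (20.8% of all genes), and OGTBKO 2 was the lowest for 9 (24.2% of all genes). Their summed level was 2315, 2581, 3445 and 2294 FPKM in WT, against 2863, 2425, 3291 and 3086 FPKM in OGTBKO, so the groups overlapped. WT 3 was also the library with the largest share of mitochondrial reads, and its deposited denominator was 0.790 of its own read total, against 0.966 to 1.13 elsewhere; the part of either in its glycolytic values was not tested. Without WT 3, Gpi1, Hk1, Pfkfb4 and Pkm were higher and Egln3, P4ha1 and Pfkfb3 lower (7 of 32), where 16.1% of all genes tested were called.

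**Figure D5:**
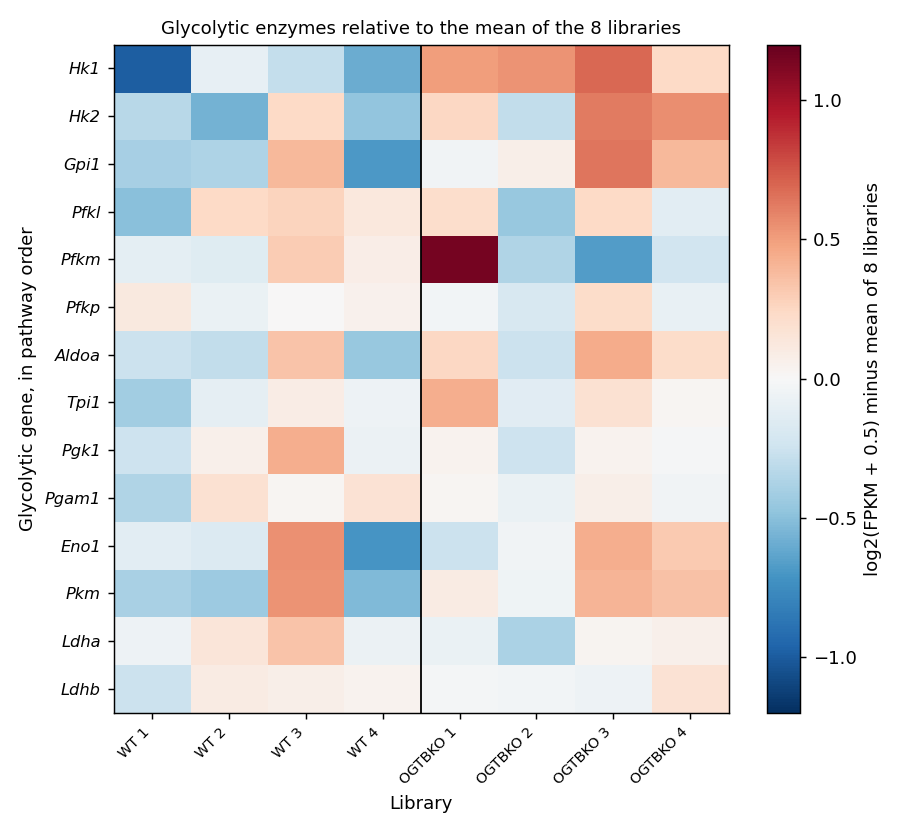
Level of the 14 glycolytic enzymes tested other than Gapdh, in pathway order, in each library as log2(FPKM + 0.5) minus the mean of the 8 libraries; red is above and blue below the mean. WT 3 is the highest WT library for 10 of 14 genes and OGTBKO 3 the highest OGTBKO library for 9, while Hk1 is below its mean in all 4 WT libraries.

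Among the remaining HIF targets, P4ha1 changed most. It encodes the catalytic subunit of the collagen prolyl 4-hydroxylase, which stabilises the collagen helix. Values were 10.01, 9.80, 8.29 and 12.5 FPKM in WT, against 5.76, 4.14, 5.49 and 3.998 FPKM in OGTBKO. Every OGTBKO library was below every WT library (10.2 ± 1.75 to 4.85 ± 0.907 FPKM, log2 -0.996 ± 0.16, adjusted p = 0.00739), and the call held in all alternatives tried (log2 -0.89 to -1.08). P4ha2, the second form of that subunit, measured 1.13 ± 0.379 and 0.914 ± 0.222 FPKM (log2 -0.19, 95% interval -0.66 to 0.29). The log2 difference between P4ha1 and P4ha2 was 2.73 ± 0.19 in WT and 1.92 ± 0.20 in OGTBKO libraries and did not overlap. Its exact two-sided permutation p of 0.0286 is the smallest that 4 against 4 libraries allow, and adjusted over the 8 ratios it was 0.229.

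By the exact permutation test 0 of the 8 ratios passed after adjustment and 1 had an unadjusted p under 0.05; a ratio that alone reached the smallest p could not have passed. Ndrg1, a stress-induced gene much used as a sign of hypoxia, measured 3.62 ± 0.376 and 3.72 ± 0.262 FPKM (log2 0.04, 95% interval -0.19 to 0.26). Car9, a carbonic anhydrase used in the same way, stayed at 0.0265 to 0.338 FPKM and Ankrd37 at 0.119 to 0.954 FPKM over the 8 libraries. Car9 rested on 15 reads in all in WT and 29 in OGTBKO libraries, and Ankrd37 on 40 and 23.

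HIF binds the core ACGTG or GCGTG, and the sequence CACGTG, which contains the first, is the E-box bound by other factors. These letters were searched, on both strands, in the 250 bases before each RefSeq start (GRCm38.p6). Below is a stretch of these windows that lies in no annotated exon, for each of the 3 genes that fell and for Hk1, which rose. A further such stretch of Pfkfb3, before its outer start, is not printed. Nor is any printed for the Hk1 window before its inner start, which begins in an annotated exon. Capitals mark ACGTG and GCGTG in either orientation.
P4ha1, chr10:59323046-59323295, plus strand: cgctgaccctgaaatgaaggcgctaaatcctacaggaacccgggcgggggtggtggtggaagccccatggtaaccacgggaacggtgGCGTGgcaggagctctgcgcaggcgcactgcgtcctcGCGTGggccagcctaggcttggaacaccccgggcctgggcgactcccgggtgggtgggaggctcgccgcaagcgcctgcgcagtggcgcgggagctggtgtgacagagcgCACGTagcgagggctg
Egln1, chr8:124949325-124949504, minus strand: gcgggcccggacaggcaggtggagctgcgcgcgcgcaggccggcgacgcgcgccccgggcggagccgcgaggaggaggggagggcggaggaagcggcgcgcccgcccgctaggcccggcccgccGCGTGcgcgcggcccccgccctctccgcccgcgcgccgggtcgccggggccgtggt
Pfkfb3, before its inner start, chr2:11502102-11502340, minus strand: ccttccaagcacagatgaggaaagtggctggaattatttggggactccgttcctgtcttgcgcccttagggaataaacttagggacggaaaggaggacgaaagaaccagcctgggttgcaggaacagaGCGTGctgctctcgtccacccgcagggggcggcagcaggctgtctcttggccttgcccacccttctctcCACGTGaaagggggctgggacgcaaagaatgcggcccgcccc
Hk1, before its outer start, chr10:62379909-62380158, minus strand: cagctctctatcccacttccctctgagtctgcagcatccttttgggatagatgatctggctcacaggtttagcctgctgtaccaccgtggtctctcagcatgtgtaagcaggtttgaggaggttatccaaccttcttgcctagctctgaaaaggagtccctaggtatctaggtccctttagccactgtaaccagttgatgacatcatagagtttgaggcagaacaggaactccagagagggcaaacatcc

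The full window of P4ha1 held 1 ACGTG and 2 GCGTG, that of Egln1 held 1 of each, and the inner window of Pfkfb3 held 1 GCGTG. It also held 1 CACGTG, which reads as ACGTG on both strands. The outer Pfkfb3 window held 1 ACGTG. Hk1 held neither core before its outer start and 3 GCGTG before its inner start, so the letters occurred also at the gene that rose. Windows were found for 34 of the 36 genes, of which 30 had been tested. ACGTG stood in 17 of these 30 (56.7%) and in 25.2% of the 9283 genes tested that had a window. GCGTG stood in 20 of the 30 (66.7%, against 50.0%) and CACGTG in 6 (20.0%, against 10.01%). The 30 genes had 47 windows and the 9283 had 11812, so the members had more windows per gene in which to hold a match. Many of the 36 were listed as known HIF targets, so these shares partly restate the choice of genes, and a match is not evidence of binding.

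Other genes of the same pathways, from lists beside the 36, are given for context. Of 29 tested genes of glucose and pyruvate handling 3 were higher and 1 lower, which is 13.8% called against 15.6% of all genes tested, a share near that background. Tigar, a fructose bisphosphatase that counters glycolysis, rose from 3.83 ± 0.563 to 6.24 ± 0.564 FPKM (log2 0.64, adjusted p = 0.0110; 0.0513 with the replicate block and 0.0647 with block and trend removal together). Fbp2, the muscle fructose bisphosphatase, rose by a log2 of 0.63 (adjusted p = 0.0354, lost in 6 of the 8 fits with a library left out). The pyruvate dehydrogenase kinases, which shut that enzyme off, were divided. Pdk4 fell from 635, 656, 721 and 688 FPKM in WT to 335, 442, 311 and 463 FPKM in OGTBKO libraries (log2 -0.82, adjusted p = 0.0119; 0.0558 with block and trend removal together), and Pdk3 rose from 1.18, 1.99, 1.29 and 1.67 to 2.43, 4.97, 3.34 and 4.80 FPKM (log2 1.08, adjusted p = 0.0151). Both changes left the groups without overlap. The HIF target Pdk1 measured 13.0 to 25.2 and 17.3 to 22.9 FPKM (log2 0.07). Gpd1, which draws triose phosphate into glycerol, was not called (log2 0.56, adjusted p = 0.0772), nor was the phosphatase subunit Pdp2 (log2 -0.49, adjusted p = 0.141).

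Of 41 further hypoxia and HIF target genes tested, 2 were higher and 3 lower (12.2% called, against 15.6% of all genes tested). The mitophagy receptor Bnip3 fell from 96.0, 122, 65.8 and 109 FPKM in WT to 49.9, 46.7, 25.2 and 44.05 FPKM in OGTBKO libraries (log2 -1.24, adjusted p = 0.0152). Its relative Bnip3l was not called (log2 -0.35, adjusted p = 0.0968). Bnip3l values did not overlap, at 25.7 to 36.8 FPKM in WT and 21.6 to 25.6 FPKM in OGTBKO libraries. The atypical cyclin Ccng2 (log2 -0.73, adjusted p = 0.0311) and Kdm3a, which demethylates histone H3 (log2 -0.39, adjusted p = 0.0442), fell too, and their calls ended in 5 and 7 of the 8 fits with a library left out. Mif, a cytokine, rose from 19.0, 13.5, 15.7 and 14.9 to 37.9, 38.6, 46.8 and 39.3 FPKM (log2 1.35, adjusted p = 0.00155). The transferrin receptor Tfrc rose by a log2 of 2.41 (adjusted p = 0.00938). Vegfa (log2 -0.23, adjusted p = 0.396) and Rora, a nuclear receptor (log2 -0.46, adjusted p = 0.0517), were not called. Members of this list thus moved in both directions, with a median log2 change of -0.04.

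Of 16 regulators and partners of HIF tested, 0 were higher and 2 lower (12.5% called, again against 15.6%). The chaperone Hsp90ab1 went from 294 ± 19.9 to 224 ± 12.4 FPKM (log2 -0.39, adjusted p = 0.0362) and the deacetylase Sirt1 from 5.70 ± 0.299 to 3.90 ± 0.842 FPKM (log2 -0.51, adjusted p = 0.0370). Neither overlapped between the groups, and each lost its call in 7 of the 8 fits with a library left out. Sirt6 (log2 0.48, adjusted p = 0.0514), Elob of the VHL complex (log2 0.37, adjusted p = 0.0599), Sirt3 (log2 -0.26, adjusted p = 0.142) and the coactivator Ep300 (log2 -0.26, adjusted p = 0.163) were not called. Hif3a lay at 0.0208 to 0.118 FPKM and was not tested.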

How the data were processed

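Libraries of 8 brown fat RNA samples were built by the NEBNext Ultra protocol, per the labels' protocols. HISAT2 2.0.5, featureCounts 1.5.0-p3 and mm10 are named in the submitters' processing notes, without a strand setting. The authors deposited FPKM values for 54532 genes. Multiplied by gene length, nearly all were whole multiples of 1 read (100% in each library except OGTBKO 4 with 99.98%, tolerance 0.001), which gave the read totals. Of the identifiers 98.3% had the coordinates of GENCODE M21.

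Log2(FPKM + 0.5) was compared, OGTBKO against WT, by limma 3.58.1 in R 4.3.3 (eBayes with trend, two-sided, no covariates) for 13171 genes with a mean of at least 0.5 FPKM, with Benjamini-Hochberg adjustment over all of them. Every adjusted p of a gene comes from limma unless another tool is named. The scale understates changes of low genes. Ratios of 2 genes were compared by an exact two-sided permutation test over 70 assignments. Alternatives changed the pseudocount, filter, denominator, libraries, replicate block and GC and length trend (quadratic in transcript GC content and log2 length, per library).

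All 36 members are named; of each further list, the 6 genes with the smallest p and Vegfa, Bnip3, Kdm3a, Slc2a4, Pdk4 and Hif3a. Bnip3l, Pdk1, Eno1b, Eno3, Pgam2 and Pgam1-ps2 were added after their values were seen. The members and lists were chosen with earlier results of these data known. Samples are numbered without saying that each is 1 animal, so p-values reflect variation among these samples, which may be technical. No library pair of a group was alike within sampling noise (chi-square of 16.0 to 99.6 per degree of freedom). Errors are SDs over 4 libraries beside FPKM and shares, and SEs beside log2 changes.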

Additional observations from a re-analysis of the deposited data

Results flagged for a closer look

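In 64 groups of 4 libraries (32 genes, WT and OGTBKO), 4 held a library far from the other 3, where chance gives about 1 in 20. Pkm was 309.4 FPKM in WT 3, while WT 1, WT 2 and WT 4 lay at 147 to 162 FPKM. Ldhb was 254 FPKM in WT 1, against 312 to 326 FPKM, and 343 FPKM in OGTBKO 4, against 291 to 298 FPKM. P4ha2 was 0.5871 FPKM in OGTBKO 4, against 0.995 to 1.08 FPKM.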

How the results depend on the processing

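Of the 4 calls, those of Hk1 and P4ha1 held in every alternative, those of Pfkfb3 and Egln1 did not (Pfkfb3 ended in 4 and Egln1 in 7 of the 8 fits with a library left out); both kept their direction throughout. Both calls also ended with the library total and with block and trend removal together, and that of Egln1 without the filter and with the replicate block. Members called higher numbered 1 in the report's fit, 2 with the library total as denominator, and 1 to 4 with a library left out. Those called lower numbered 3, 1 with the library total, and 1 to 3 with a library left out. With the replicate block 1 was higher and 2 lower. Over all genes, 1068 were higher and 982 lower, against 561 and 327 with the replicate block, 354 and 190 with block and the GC and length trend removed, 980 and 249 with the library total, 832 and 577 with the trend removed, and 737 and 492 without the filter; with a library left out they ranged from 418 to 1119 and from 276 to 1004. The cause was not tested. Deviations of same-numbered libraries correlated at 0.22, 0.17, 0.01 and -0.01, against -0.17 to 0.12 for WT and OGTBKO libraries of unlike number. Whether libraries pair by number was therefore not settled. Of the 28 members not called, 12 changed sign in some alternative. Calls of the ratios of 2 genes tell little about stability here. With all libraries or with a library left out, a ratio that alone reached the smallest exact p could not pass after adjustment over the 8. The sign of 5 of the 8 changed in some alternative. The planned count-model tests were not reported, since the deposited values are FPKM. With the trend removed the same 4 members were called. Depth limits Car9, Ankrd37, Aldoc and Slc16a3.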
